A study of Sus scrofa with 57 samples.

Results

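Leptin (LEP), retinol-binding protein 4 (RBP4), lipocalin 2 (LCN2) and angiopoietin-like 4 (ANGPTL4) are proteins that fat cells secrete, and ADIPOR2 is a receptor for the fat-cell hormone adiponectin. These 5 genes were taken by their symbols from the FPKM tables, in which they are 5 of 25285 gene identifiers. They were measured in mature adipocytes, the fat-laden cells that float after collagenase digestion, from the retroperitoneal fat of pigs of an F2 cross of Duroc and Göttingen minipig. Both groups came from the same cross and were chosen as its lean and obese extremes, so obesity here was a phenotype of the animals and not a treatment. The labels give no age, and none was used here.

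RNAseq of ribosome-depleted RNA covered 5 lean and 5 obese males. Obese pig-572 has a pair of libraries, which were averaged, so that 11 libraries gave 10 animals. DNA methylation was measured by capture of methylated fragments (mDNAcap) and by reduced representation bisulfite sequencing (RRBS) in males and females, labelled as 13 obese and 10 lean pigs. Pig-411 is labelled obese but stands among the lean libraries in the header of the mDNAcap comparison, which holds 11 libraries of each group.

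Fat cells release hormones and carrier proteins that report the state of the fat store to other organs. Leptin is made in proportion to fat mass and acts on the brain to limit food intake. RBP4 carries retinol in the blood and has been linked to insulin resistance. Lipocalin 2 binds bacterial iron carriers and is made in inflamed tissue. ANGPTL4 inhibits lipoprotein lipase, the enzyme that releases fatty acids from circulating triglycerides, and its transcription responds to fasting. ADIPOR2 passes the adiponectin signal into the cell, where fatty acid oxidation is among its targets.

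In these adipocytes LEP was higher in every obese pig than in any lean pig, about 4.88-fold on the scale of the test. ANGPTL4 and RBP4 pointed the other way, with obese means of 12.8 and 17.7 scaled FPKM against lean means of 59.3 and 40.4, and in both genes the groups overlapped. LCN2 ranged widely in both groups, and ADIPOR2 was at nearly the same level in both. None of the 5 genes passed an adjusted p of 0.05 in limma, which called 1 gene among the 10200 tested, or 0.00980%. At an unadjusted p of 0.05, LEP was the single member higher in obese pigs, where 10.5% of all genes were, and ANGPTL4 the single member lower, where 10.3% were. The median difference over all genes tested was -0.0024 on the log2 scale.

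**Figure D1:**
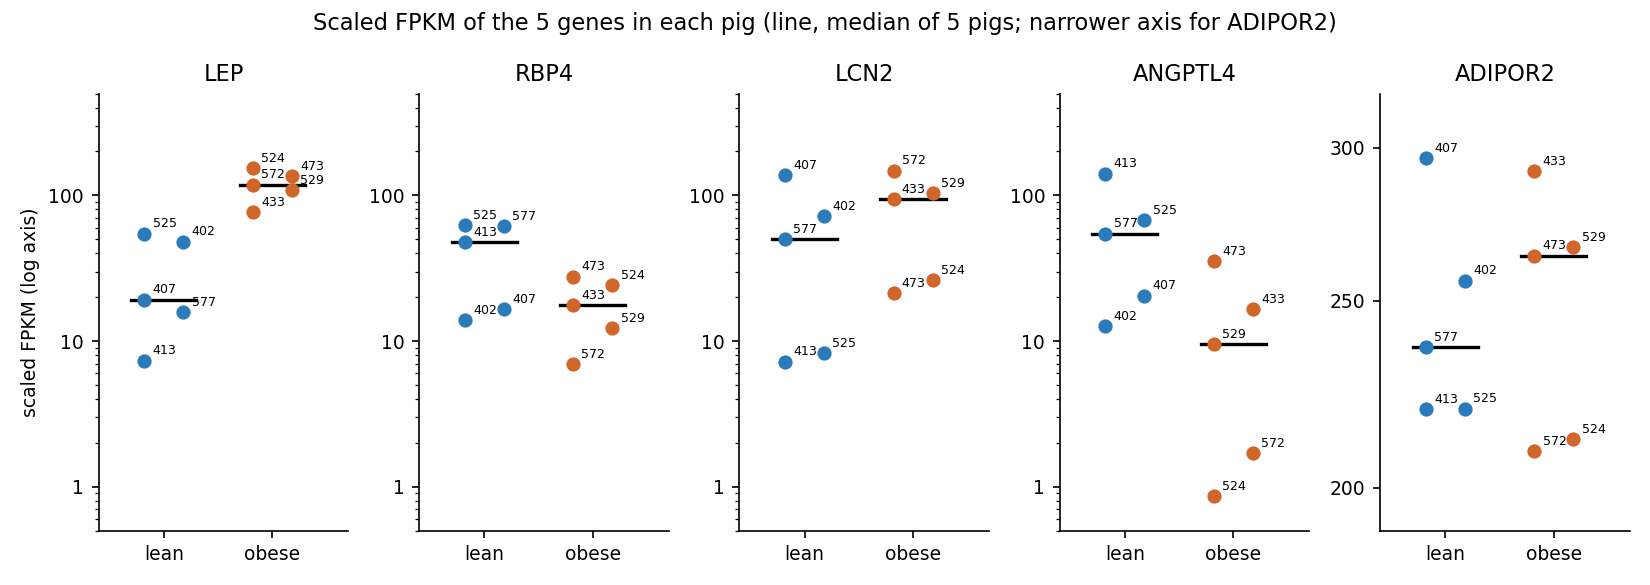
Scaled FPKM (log axis) of LEP, RBP4, LCN2, ANGPTL4 and ADIPOR2 in each of 5 lean and 5 obese pigs, with the number of each pig beside its point and a line at the median. The obese pigs lie above the lean pigs for LEP, the lean pig-402 and pig-407 lie among the obese pigs for RBP4 and ANGPTL4, and the axis of ADIPOR2 covers a narrower range.

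FPKM is the number of fragments per kilobase of transcript, relative to the mapped fragments of the library, and here it was further divided by a size factor for each library, from 0.69 to 1.22. Between 8945 and 10287 genes had a deposited FPKM of at least 1 in a library, and the second library of pig-572 had the fewest. The labels name no batch for the RNA libraries. Fewer cells of a type and less RNA per cell cannot be told apart in such bulk samples. The p-values set a group difference or a correlation against the variation between these animals.

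The 8 adipocyte markers found in the tables summed to 1407 to 1659 scaled FPKM in lean and 1315 to 1747 in obese pigs. PLIN1, which coats the lipid droplet, had means of 290.1 in lean and 341.2 FPKM in obese pigs, and CIDEC, which enlarges the droplet, 486.0 and 408.8. Of the 8, 2 were higher in obese pigs and none lower at an unadjusted p of 0.05 in limma. Among all genes 10.5% were higher and 10.3% lower. AQP7 had means of 28.4 and 49.9 FPKM, with every obese pig above every lean pig, and an adjusted p of 0.0773 in limma. CEBPA had 11.5 and 18.1 FPKM, with an adjusted p of 0.170 in limma. Markers of macrophages and leukocytes were low, since 8 of 10 had a mean under 1 FPKM and CD163 was at 0 in every library. Their summed level ranged from 3.86 to 9.17 FPKM in lean and from 4.25 to 8.39 in obese pigs. The endothelial list summed to 1.48 to 12.5 FPKM in lean and 3.35 to 8.54 in obese pigs, and the mesothelial list to 0.406 to 0.806 and 0.357 to 1.24. Fibroblast and preadipocyte genes, with COL3A1 the most abundant, summed to 230.0 to 705.6 FPKM in lean and 252.5 to 625.8 in obese pigs, and DLK1 was at 0 in all. Red cell genes summed to 13.3 to 81.9 FPKM in lean and 15.7 to 39.9 in obese pigs. The part of these cells in the results was not tested.

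LEP (ENSSSCG00000016588) lies at chr18:21201785-21204671 of Sscrofa10.2. Its scaled FPKM in the lean pigs was 48.1 in pig-402, 19.2 in pig-407, 7.34 in pig-413, 54.6 in pig-525 and 15.8 in pig-577. In the obese pigs it was 76.6 in pig-433, 135.6 in pig-473, 153.1 in pig-524, 108.9 in pig-529 and 118.5 in pig-572. Every obese pig was above every lean pig, a pattern shown by 2.34% of the genes tested, and pig-402 and pig-525 stood highest among the lean. The means were 29.0 ± 21.0 (SD, n = 5) and 118.5 ± 28.9 FPKM (SD, n = 5). The difference in log2(FPKM + 1) was 2.29 (SE 0.475, 95% confidence interval 1.24 to 3.34), with an adjusted p of 0.0900 in limma. The two-sided exact permutation test, which enumerates the 252 ways to divide 10 pigs, gave p = 0.00794, the smallest that 5 against 5 animals allow. Leaving out 1 pig moved the adjusted p in limma between 0.0425, without lean pig-402, and 0.210, without obese pig-524 or pig-572. With FPKM as deposited it was 0.193, and it was 0.0343 when the libraries of pig-572 were entered separately, which counts 1 animal as 2 replicates. LEP took rank 1488 of the 10200 genes by mean FPKM in lean pigs and rank 517 in obese pigs.

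ANGPTL4 (ENSSSCG00000013599) lies at chr2:71271943-71279720. Its scaled FPKM in the lean pigs was 12.6 in pig-402, 20.5 in pig-407, 141.2 in pig-413, 67.4 in pig-525 and 54.5 in pig-577. In the obese pigs it was 16.5 in pig-433, 35.3 in pig-473, 0.860 in pig-524, 9.56 in pig-529 and 1.71 in pig-572. The lean pig-402 and pig-407 lay within the range of the obese group, 3 obese pigs were below all lean pigs, and obese values spanned 41.0-fold. The difference in log2(FPKM + 1) was -2.44 (SE 0.883, 95% confidence interval -4.39 to -0.48), with an adjusted p of 0.181 in limma and p = 0.0476 in the exact permutation test. All 5 obese pigs were below the lean median of 54.5 FPKM. Its rank by mean FPKM was 870 in lean and 2764 in obese pigs.

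RBP4 (ENSSSCG00000010479) lies at chr14:114769058-114776317. In the lean pigs its scaled FPKM was 13.9 in pig-402, 16.5 in pig-407, 47.7 in pig-413, 62.4 in pig-525 and 61.3 in pig-577. In the obese pigs it was 17.5 in pig-433, 27.6 in pig-473, 24.3 in pig-524, 12.3 in pig-529 and 6.98 in pig-572. The lean pigs formed a high set of 3 and a low pair, pig-402 and pig-407, and the low pair lay inside the obese range. The means were 40.4 ± 23.7 (SD, n = 5) and 17.7 ± 8.46 FPKM (SD, n = 5). The difference was -1.03 on the log2 scale (SE 0.498, 95% confidence interval -2.13 to 0.073), with an adjusted p of 0.264 in limma and an exact permutation p of 0.103.

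LCN2 (ENSSSCG00000005638) lies at chr1:302600678-302605199. In the lean pigs its scaled FPKM was 72.1 in pig-402, 137.2 in pig-407, 7.23 in pig-413, 8.24 in pig-525 and 49.9 in pig-577. In the obese pigs it was 94.5 in pig-433, 21.2 in pig-473, 26.3 in pig-524, 103.7 in pig-529 and 148.0 in pig-572. High and low pigs occurred in both groups, with a 19.0-fold range in the lean and a 6.97-fold range in the obese. The difference of 0.91 on the log2 scale (SE 0.865, 95% confidence interval -1.01 to 2.82) was smaller than this spread, with an adjusted p of 0.566 in limma and an exact permutation p of 0.389. LCN2 is also a granule protein of neutrophils. The neutrophil genes MPO, ELANE, LTF and CSF3R had means under 0.02 FPKM in both groups, whereas S100A12 was at 95.7 in lean and 105.9 in obese pigs, so that the list summed to 66.0 to 157.8 and 46.8 to 265.6 FPKM. The part of neutrophils in the LCN2 values was not tested.

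ADIPOR2 (ENSSSCG00000000757) lies at chr5:70999570-71021751 and was the most abundant of the 5 genes per length in both groups. In the lean pigs its scaled FPKM was 256.0 in pig-402, 296.2 in pig-407, 219.6 in pig-413, 219.8 in pig-525 and 236.5 in pig-577. In the obese pigs it was 291.8 in pig-433, 263.8 in pig-473, 211.9 in pig-524, 266.5 in pig-529 and 208.8 in pig-572. The groups covered nearly the same range. The difference was 0.01 on the log2 scale (SE 0.149), with an adjusted p of 0.965 in limma, and its sign turned under several settings. The 95% confidence interval ran from 0.804-fold to 1.27-fold, so that differences of that size in either direction lie within it.

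Pigs of the same group differed more in the RNA of the secreted proteins than in that of the receptor. The coefficient of variation (SD over mean) among lean pigs was 0.722 for LEP, 0.587 for RBP4, 0.978 for LCN2 and 0.864 for ANGPTL4, against 0.130 for ADIPOR2 and a median of 0.207 over all genes. Among obese pigs it was 0.244 for LEP, 0.477 for RBP4, 0.687 for LCN2, 1.10 for ANGPTL4 and 0.147 for ADIPOR2. The median over all genes was 0.166 in obese pigs. The bounds that cufflinks gave for a single library were narrower, at most 16.6% on either side of the value in these genes. The libraries of pig-572 gave 121.8 and 115.3 scaled FPKM for LEP and 1.67 and 1.75 for ANGPTL4.

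Whether the genes moved apart within an animal was tested by the log2 ratio of each of the 10 pairs, with exact permutation tests adjusted over the pairs. LEP over RBP4 was higher in obese pigs by 3.32 on the log2 scale, LEP over ANGPTL4 by 4.73 and LEP over ADIPOR2 by 2.27. In these 3 pairs, which share LEP, every obese pig lay above every lean pig, with an exact p of 0.00794 and an adjusted p of 0.0265. The 5 genes were chosen with earlier results of these data known, so these p-values describe the data and are no independent support. ADIPOR2 barely differed, by 0.01, so LEP over ADIPOR2 largely restates the difference of LEP alone, which was 2.29. The calls of these 3 pairs were lost, with an adjusted exact p of 0.0529 to 0.0794, without any 1 of the 5 obese pigs. That of LEP over ANGPTL4 was also lost without lean pig-413. Groups that are separated with all pigs stay separated when 1 is left out, so a lost call does not mean that they overlapped. The number of splits falls equally whichever group loses a pig. Adjusted exact p as low as 0.0265 nevertheless occurred without a lean pig, so fewer splits alone do not account for the lost calls. Their reason was not tested. LEP over LCN2 differed by 1.38, with an exact permutation p of 0.246. LCN2 over ANGPTL4 differed by 3.35, with an exact permutation p of 0.0873 and 0.175 after adjustment. ANGPTL4 over ADIPOR2 differed by -2.45, with an exact permutation p of 0.0476 and 0.119 after adjustment.

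Across the 10 pigs RBP4 and LCN2 ran opposite to each other. Pearson's r of their log2 values was -0.80 (permutation p = 0.0069, adjusted over 10 pairs 0.0679) and Spearman's rho was -0.84 (permutation p = 0.0039, adjusted 0.039). Without pig-525 and pig-577, the farthest from the median of RBP4, r was -0.91, and with each group centred on its own mean it was -0.79. RBP4 and ANGPTL4 ran together, with r = 0.74 (permutation p = 0.0156, adjusted 0.0679) and rho = 0.77 (permutation p = 0.0119, adjusted 0.0596). Without pig-525 and pig-577 that r was 0.66, and centred by group it was 0.60. LEP and ANGPTL4 had r = -0.72 (permutation p = 0.0204, adjusted 0.0679) and rho = -0.70 (permutation p = 0.0305, adjusted 0.102), and r was -0.47 without pig-413 and pig-577 and -0.42 when centred by group. With 5 pigs a group, no correlation within a group was tested. The other 7 pairs had an unadjusted permutation p of at least 0.0539.

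**Figure D2:**
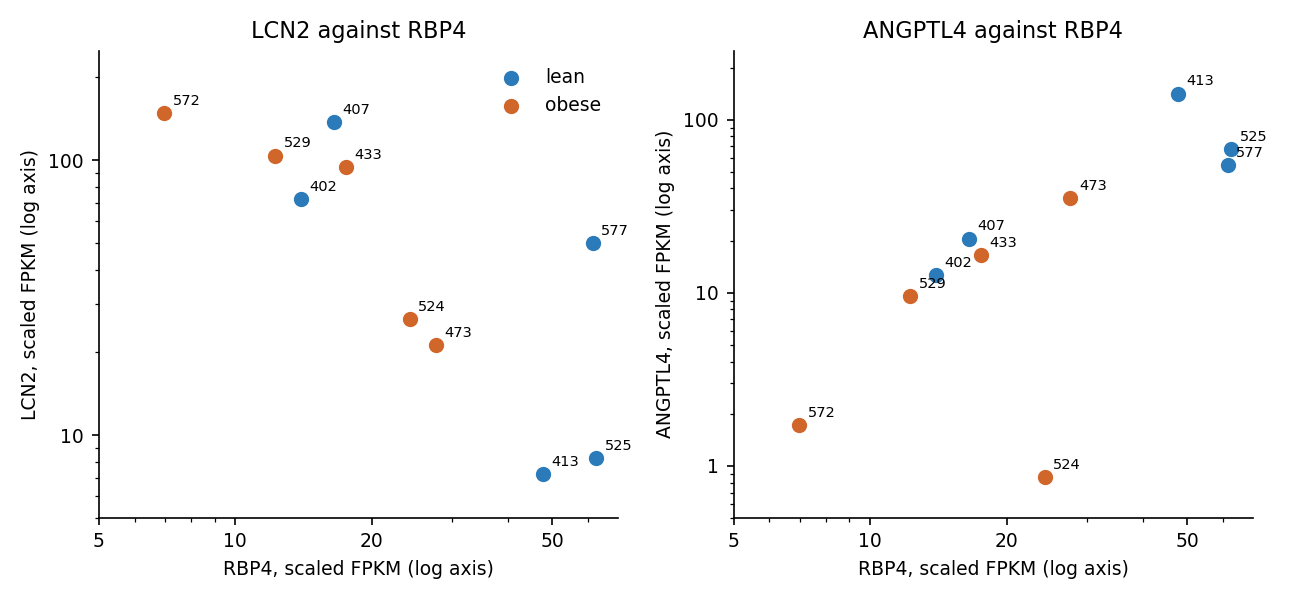
LCN2 (left) and ANGPTL4 (right) against RBP4 in scaled FPKM on log axes, each point a pig with its number, lean in blue and obese in orange. Pigs with more RBP4 had less LCN2 and more ANGPTL4, with r of -0.80 and 0.74 over 10 pigs, and pig-402 and pig-407 lie beside obese pig-433 and pig-529.

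The genes whose log2 values followed each member most closely over the 10 pigs are given as a description. ANGPTL4 was followed by the cyclin CCNL1 (r = 0.98), DCUN1D3 (r = 0.979) and the stress-response gene GADD45B (r = 0.966). RBP4 was followed by G0S2, an inhibitor of the lipase ATGL (r = 0.976), the splicing factor PRPF38A (r = 0.963) and the actin-binding PFN2 (r = 0.955). G0S2 averaged 36.2 ± 24.5 (SD, n = 5) scaled FPKM in lean pigs and 12.97 ± 9.03 (SD, n = 5) in obese ones. LEP was followed by PAFAH1B1 (r = 0.975), NF2 (r = 0.974) and METTL21A (r = 0.964), LCN2 by NDUFA10 (r = 0.964), WDR26 (r = 0.939) and CIB1 (r = 0.936). For ADIPOR2 these were MAML2 (r = 0.959), EPB41L2 (r = 0.901) and SNX17 (r = 0.833).

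Genes that cells switch on when tissue is cut and digested, such as FOS and JUN, had their highest summed level in the 3 pigs with the most ANGPTL4 and RBP4. Of 14 such genes tested, 5 were lower in obese pigs at an unadjusted p of 0.05 and none higher, against 10.5% higher and 10.3% lower among all genes, and none passed the adjusted p in limma, with a median difference of -0.73 on the log2 scale. The difference was negative in 11 of the 14 and positive in 3, the heat shock genes HSPA8 (0.79), HSPH1 (0.38) and HSP90AA1 (0.37). The summed level of the list was 827.6 to 2038 scaled FPKM in lean and 717.7 to 1527 in obese pigs. The 3 lean pigs with 1932 FPKM or more, pig-413, pig-525 and pig-577, were the 3 with the most ANGPTL4 and the most RBP4. Pig-572 and pig-524, with sums of 717.7 and 784.1 FPKM, had the least ANGPTL4. RBP4 was lowest in pig-572, at 6.98 FPKM, but was 24.3 in pig-524, within an obese range that reached 27.6. The part of this response in the differences of ANGPTL4 and RBP4 was not tested.

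**Figure D3:**
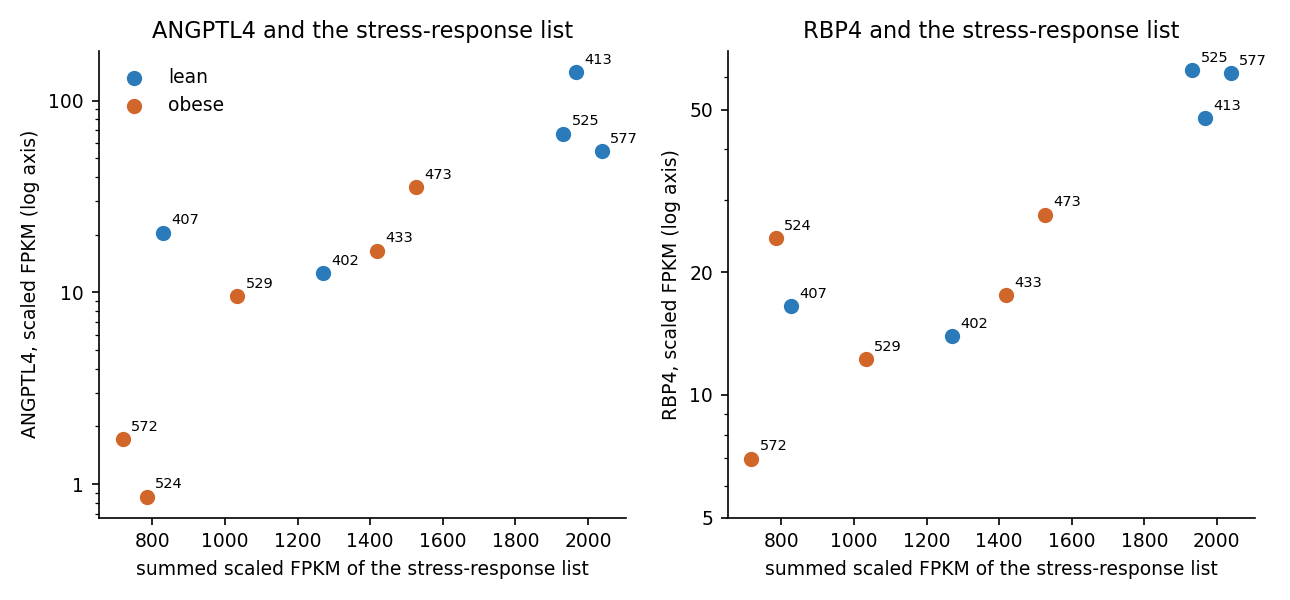
ANGPTL4 (left) and RBP4 (right) in scaled FPKM on a log axis against the summed scaled FPKM of the genes that respond to tissue dissociation, each point a pig, lean in blue and obese in orange. Lean pig-413, pig-525 and pig-577, at 1932 to 2038 FPKM, are highest on both axes in both panels.

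The files held the genes of 25 other secreted proteins of fat cells, of which 14 were tested. The difference was positive in 10 of them and negative in 4, none passed the adjusted p in limma, and their median difference was 0.06 on the log2 scale. FGF1, a growth factor, was the single one with an unadjusted p under 0.05, where 10.5% of all genes were higher, and its lean mean was below the filter of 1 FPKM. It was at 0.885 ± 0.519 (SD, n = 5) FPKM in lean and 1.56 ± 0.463 (SD, n = 5) in the obese. The chemokine CCL2 had means of 23.3 in lean and 9.31 FPKM in obese pigs, and SFRP5, a secreted Wnt inhibitor, 48.9 and 64.1. Adiponectin itself was not analysed here.

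On the receiving side of leptin, the annotated entry of the receptor LEPR had a mean of 0.00327 FPKM in lean and 0.00543 in obese pigs. Whether this entry covers the whole transcript was not checked, so absence of the receptor cannot be read from it. Of 12 leptin signalling genes tested, 2 were higher and 1 lower at an unadjusted p of 0.05, near the 10.5% higher and 10.3% lower among all genes, and none passed the adjusted p in limma. LEPROT, which is known to limit the receptor at the cell surface, had 35.3 ± 9.59 (SD, n = 5) FPKM in lean and 49.6 ± 8.61 (SD, n = 5) in the obese, a difference of 0.50 on the log2 scale. Its relative LEPROTL1 differed by 0.36. The receptor-bound kinase JAK2 had 2.42 ± 0.425 (SD, n = 5) and 1.77 ± 0.200 FPKM (SD, n = 5), a difference of -0.30. The list's median difference was -0.13.

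The other adiponectin receptor, ADIPOR1, was at 14.2 ± 2.11 (SD, n = 5) scaled FPKM in lean and 15.5 ± 1.16 (SD, n = 5) in the obese, far below ADIPOR2, and CDH13, which binds adiponectin at the cell surface, at 0.727 and 0.673. Of 14 genes of adiponectin signalling tested, 2 were higher and 2 lower at an unadjusted p of 0.05, against 10.5% higher and 10.3% lower among all genes, and none passed the adjusted p in limma, with a median difference of -0.09 on the log2 scale. Among the 4 were subunits of AMP-activated kinase and its upstream kinases. The catalytic subunit PRKAA2 differed by 0.48 (adjusted p in limma 0.141) and the regulatory subunit PRKAG1 by -0.57 (adjusted p in limma 0.112). The upstream kinases STK11 and CAMKK2 differed by 0.29 and -0.90, with adjusted p of 0.204 and 0.215 in limma.

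Around RBP4, none of 9 genes of retinol transport and use tested had an unadjusted p under 0.05 in limma, and their median difference was 0.03 on the log2 scale. STRA6, the receptor of RBP4, had a mean of at most 0.0219 FPKM in either group and TTR, the blood partner of RBP4, of at most 0.215. ALDH1A1, which makes retinoic acid, was abundant at 190.9 FPKM in lean and 217.3 in obese pigs. RXRG, a nuclear receptor for retinoids, had means of 31.1 and 14.9 FPKM, with an adjusted p of 0.262 in limma.

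Among 12 genes of lipocalin 2 regulation and iron tested, 5 were lower and none higher in obese pigs at an unadjusted p of 0.05, against 10.5% higher and 10.3% lower among all genes, none passed the adjusted p in limma, and the median difference was -0.34. The list holds 4 genes of NF-kappaB signalling, which is known to drive LCN2. NFKBIA, which inhibits NF-kappaB, differed by -1.47 on the log2 scale, NFKBIZ by -1.26 and NFKB1 by -0.56, with adjusted p from 0.177 to 0.191 in limma. RELA differed by 0.08 with an unadjusted p of 0.536 in limma. The transferrin receptor TFRC had 12.003 ± 8.75 (SD, n = 5) FPKM in lean and 3.89 ± 3.21 (SD, n = 5) in the obese, and BDH2, an enzyme of iron carrier synthesis, 17.6 ± 1.73 (SD, n = 5) and 14.8 ± 0.946 (SD, n = 5). The proposed lipocalin 2 receptor SLC22A17 had means of 0.346 and 0.149 FPKM.

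Around ANGPTL4, 13 genes of the lipoprotein lipase system were tested, of which 1 was higher and 2 lower at an unadjusted p of 0.05, near the 10.5% higher and 10.3% lower among all genes, none passed the adjusted p in limma, and the median difference was 0.18. PDK4, a kinase that shuts glucose out of oxidation and is, like ANGPTL4, a target of PPAR receptors, had 302.1 ± 215.8 (SD, n = 5) FPKM in lean and 73.0 ± 54.8 (SD, n = 5) in the obese, a difference of -2.29 with an adjusted p of 0.182 in limma. ANGPTL1 differed by -0.54. LMF1, which folds lipoprotein lipase, differed by 0.28, and PPARG, the master regulator of fat cells, had means of 96.0 and 90.5 FPKM. LPL and GPIHBP1 were not analysed here.

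**Figure D4:**
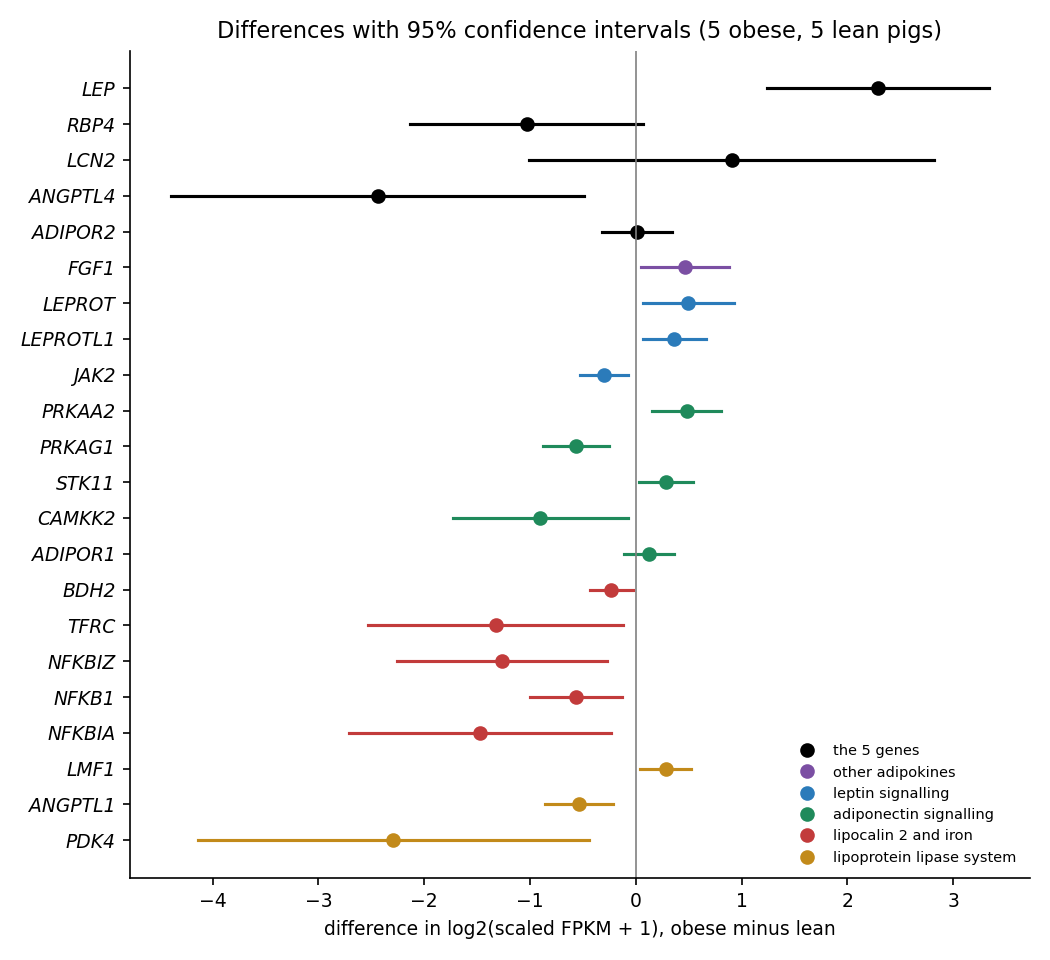
Difference in log2(scaled FPKM + 1), obese minus lean, with the 95% confidence interval from limma (5 pigs a group), for the 5 genes (black), for the genes of their pathways with an unadjusted p under 0.05 and for ADIPOR1. LEP at 2.29 and ANGPTL4 at -2.44 are the extremes among them, and PDK4 at -2.29 lies next to ANGPTL4.

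Methylation near the genes was read from the regions that the study's callers kept as different between groups, so these regions were chosen for their difference and no test is given. No mDNAcap region lay within 50000 bases of any of the 5 loci, whereas 28.3% of all gene loci had one. RRBS regions measured in 3 or more pigs per group lay within that distance of LEP, LCN2 and ANGPTL4, 3 of 5 loci against 16.0% of all gene loci. None lay inside the 5 genes or within 10000 bases of them, a distance for which no share of all gene loci is given. The tables give no strand, so the side of a region is stated by coordinates.

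The region near LEP, 19490 bases beyond the end of the gene at chr18:21224161-21224286, held 11 CpGs and overlapped no gene. Its mean methylation was 75.5% in lean and 60.9% in obese pigs. The region near LCN2, 44353 bases before its start at chr1:302556249-302556325, held 10 CpGs inside the locus of SLC25A25, a mitochondrial carrier. Its mean was 5.37% in lean and 17.5% in obese pigs. SLC25A25 itself had 6.81 ± 2.08 (SD, n = 5) and 7.03 ± 2.42 FPKM (SD, n = 5).

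A pair of regions lay beyond the end of ANGPTL4, both within the locus of KANK3, a cytoskeletal regulator. The nearer, at chr2:71310786-71310870 and 31066 bases away, held 10 CpGs with a mean of 27.4% in obese pigs, and the other, at chr2:71311190-71311250, held 12 CpGs with a mean of 18.3%. In lean pigs both were listed at under 0.1%, as were 43 of the 2416 regions. Of the 1475 regions higher in obese pigs, 31 had a larger difference than the first of the pair and 270 than the second. KANK3 had means of 0.166 and 0.146 FPKM. Values of single pigs were not analysed for RRBS and the depth behind each mean is unknown. Among the 610 regions measured in 5 or more pigs per group, none lay within 50000 bases of the 5 loci. These are fewer than the 2416, and the share of all gene loci near them is not given, so this count has no background.

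**Figure D5:**
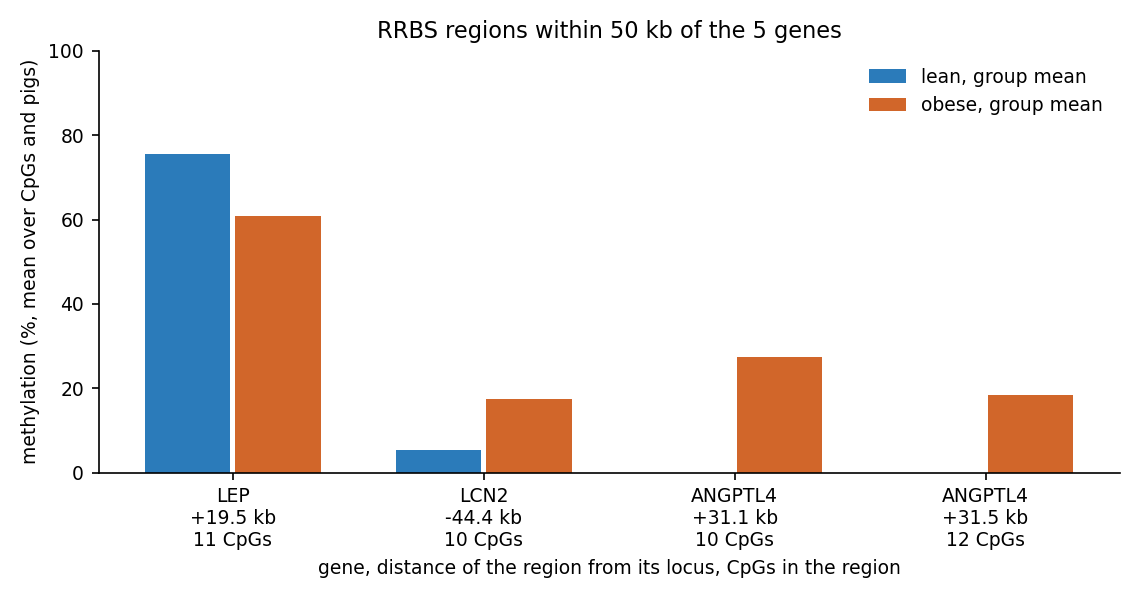
Mean methylation (%) of lean (blue) and obese (orange) pigs in the 4 RRBS regions within 50000 bases of the 5 genes, with the distance to the locus by coordinates and the number of CpGs below each pair of bars. The bars are group means without error because no values of single pigs were used, and the lean bars of the ANGPTL4 pair are at under 0.1%.

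The nearest mDNAcap region to LEP lay 69585 bases before its start, at chr18:21131001-21132200. Its normalized counts ran from 13.5 through a median of 26.7 to 49.4 in 11 obese libraries and from 11.2 through 20.5 to 28.6 in 11 lean libraries. The groups overlapped widely. For the other genes the nearest lay 149578 bases (LCN2) to 291950 bases (ADIPOR2) away.

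Within 50000 bases of the 5 loci 16 other genes were listed, of which 10 were tested and none passed the adjusted p in limma. Those with an unadjusted p under 0.05 were named after their values were seen. C9ORF16, 1524 bases from LCN2, had 75.0 ± 29.3 (SD, n = 5) FPKM in lean and 129.3 ± 10.7 (SD, n = 5) in the obese, a difference of 0.86 with an adjusted p of 0.138 in limma. MARCH2, 27849 bases from ANGPTL4, had 11.1 ± 2.21 (SD, n = 5) and 17.6 ± 1.38 FPKM (SD, n = 5), a difference of 0.64 with an adjusted p of 0.0850 in limma. GPR120, a fatty acid receptor 3900 bases from RBP4, had means of 4.06 and 5.05 FPKM.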

How the data were processed

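Per the labels and methods, the authors mapped RNAseq reads to Sscrofa10.2 with STAR 2.3.1 and estimated FPKM with Cufflinks 2.2.0. For mDNAcap the authors deposited regions from diffReps, with windows of 1000 bases in steps of 100 bases, whose values are normalized counts and whose group means are a signal. For RRBS they used Bismark 0.10 with Bowtie2 2.1.0, kept CpGs with at least 5 reads, and deposited metilene regions with each group's mean as a fraction and a score, the number of CpGs. The authors' own fold changes and p-values, and their tables of gene comparison and hotspots, were not used.

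Here FPKM was divided by median-of-ratios size factors, the pair of libraries from pig-572 was averaged, and genes whose mean was 1 or more were tested on log2(FPKM + 1) with limma 3.58.1 (eBayes with trend, R 4.3.3) and Benjamini-Hochberg adjustment at 0.05. The limma script was tested on simulated data. Exact permutation tests ran over all 252 splits, correlations over 100000 permutations (Python 3.11.15, numpy 2.4.6, scipy 1.17.1). Of 25285 genes, 9 with a failed estimate were left out. RNAseq depth cannot be read from FPKM. Fractions were turned into percent. A test of mDNAcap counts was planned, but no region lay close enough.

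The members and gene lists were chosen with earlier results of these data known. The genes named were the members, their receptors and carriers, up to 6 genes per list with the largest difference at an unadjusted p under 0.05, 3 genes most like each member, and genes at the regions. Examples beyond these were picked from the lists. All 5 members passed the filter in both groups. Alternatives covered the pseudocount, the filter, the scaling, the libraries of pig-572, each pig left out, and the distance.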

Additional observations from a re-analysis of the deposited data

How the results depend on the processing

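The differences of LEP, RBP4, LCN2 and ANGPTL4 kept their direction under every alternative run. That of LEP was 2.29 with an adjusted p of 0.0343 in limma when the libraries of pig-572 were separate replicates, a fit that counts 1 pig as 2. Leaving out 1 pig gave differences of 1.91 to 2.59 with adjusted p of 0.0425 to 0.210, and FPKM as deposited gave an adjusted p of 0.193. The ranges without 1 pig were -1.33 to -0.76 for RBP4, 0.41 to 1.42 for LCN2, -2.98 to -1.91 for ANGPTL4 and -0.047 to 0.083 for ADIPOR2. The sign of ADIPOR2 turned with FPKM as deposited (-0.00099, exact permutation p = 1) and with separate libraries (-0.026). The number of genes called in limma, 1 as reported, was 8 with a pseudocount of 10, 5 without the filter, 0 with FPKM as deposited, 10 with the second library of pig-572 alone, 178 with its libraries separate, and 1 to 161 without 1 pig, the highest without lean pig-402. The cause was not tested. Without 1 pig the log2 ratio differed by 2.82 to 3.88 for LEP over RBP4, 3.92 to 5.41 for LEP over ANGPTL4 and 1.93 to 2.62 for LEP over ADIPOR2, with adjusted exact permutation p between 0.0265 and 0.0794. All 3 calls were lost without any 1 of the obese pigs, and that of LEP over ANGPTL4 also without lean pig-413. Separation of the groups in each of these cases follows from their separation with all pigs. The number of splits is the same whichever group loses a pig, and the reason for the lost calls was not tested. Within 100000 bases there was 1 mDNAcap region instead of 0, and RRBS regions, 4 as reported, numbered 0 within 10000 bases and 0 with values in at least 5 pigs a group. For these alternatives no share of all gene loci is given. The 4 alternatives planned for mDNAcap differences gave no value, since no region lay within the distance. No paired analysis was possible because the labels give no number that lean and obese pigs share.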
